A study of Rattus norvegicus with 69 samples.

Results

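The Ugt1a cluster is 1 locus on rat chromosome 9 that encodes a family of UDP-glucuronosyltransferases. The rows of the deposited gene table whose symbol begins with Ugt1a were taken, without the row of the pseudogene Ugt1a9-ps, which left 8 genes of 38513. They are Ugt1a1, Ugt1a2, Ugt1a3, Ugt1a5, Ugt1a6, Ugt1a7c, Ugt1a8 and Ugt1a9. Their levels were followed singly and as 1 sum in 69 liver libraries of Wistar rats.

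UDP-glucuronosyltransferases sit in the membrane of the endoplasmic reticulum and couple glucuronic acid, supplied as UDP-glucuronic acid, to small molecules, which makes them water soluble and lets them leave through bile or urine. Ugt1a1 is the enzyme that conjugates bilirubin, the end product of haem breakdown, and its loss in the Gunn rat causes lifelong jaundice. Ugt1a6 conjugates small planar phenols, and Ugt1a7c is known for activity towards aromatic carcinogens. Each transcript of the cluster starts with a first exon and a promoter of its own, and all are spliced to the same set of downstream exons, so the first exon sets the substrate and the common exons bind the sugar donor.

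All groups were Wistar rats. The 6 groups described by the study were adult males made obese on a high-fat diet that then had a free choice of a high-fat and a low-fat diet until an overnight fast and removal of the liver. RYGB rats (labelled Bypass, n = 14) had a Roux-en-Y gastric bypass and sham rats (n = 12) a sham operation. Liraglutide (n = 5), a GLP-1 receptor agonist, was injected under the skin. PYY3-36 (n = 5), a gut hormone fragment, was given by osmotic minipump. Rats on liraglutide+PYY3-36 (n = 11) received both, and saline rats (n = 8) received saline by both routes. Of the combination animals 6, and of the saline animals 3, had a prolonged feeding period that the labels do not tie to a library. The groups BWM (n = 8) and Lean (n = 6) are given by the labels alone, and the text of the study does not describe their diet or treatment, so neither is interpreted here. The labels also name a batch A (41 libraries) and a batch B (28 libraries) without saying what it is. Batch A holds 11 RYGB, 7 sham, 6 liraglutide+PYY3-36, 3 saline and all BWM and Lean libraries. Batch B holds 3 RYGB, 5 sham, 5 liraglutide+PYY3-36, 5 saline and all libraries of the single treatments. The combination and saline libraries of batch A equal in number the animals with prolonged feeding. Batch and feeding length may therefore coincide in these groups, which was not tested.

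Total counts ran from 9110860 to 27559144 per library, with a median of 21027325. Of the hepatocyte markers Alb, Apoa1, Ttr, Serpina1, Cps1, Tat, Cyp2e1 and Hnf4a, edgeR and DESeq2 called 0 of 8 between RYGB and sham. Over all features edgeR called 3.12% and DESeq2 3.82% in this comparison. The 1 marker at an unadjusted p under 0.05 in edgeR was Ttr, with 7090 ± 1984 CPM (SD) in RYGB and 10183 ± 2872 in sham. Its log2 fold change was -0.50 (SE 0.164, adjusted p = 0.0860). Of the 8 estimates 3 were positive, and Alb stood at 113310 ± 44684 CPM in RYGB and 95256 ± 24383 in sham. Levels are given as CPM, reads scaled to the size of each library by TMM. The first principal component held 36.03% of the variance, and 6 libraries of batch B had its highest scores. These were sham replicate 12, PYY3-36 replicate 5, liraglutide replicate 4 and liraglutide+PYY3-36 replicates 8, 9 and 11, and the comparisons of the sum that hold them are also given without them, an alternative chosen after seeing the data. In whole liver, a change in the RNA of each cell and a change in the number of cells that carry it cannot be told apart.

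In the build of the deposited table, Rnor_6.0, all 8 genes lay on the plus strand of chromosome 9 and ended at the same base, 95302822. Their starts were ordered along the locus from Ugt1a9 at 95161157 through Ugt1a8 (95221474), Ugt1a7c (95233957), Ugt1a6 (95241609), Ugt1a5 (95256628), Ugt1a3 (95274707) and Ugt1a2 (95285592) to Ugt1a1 at 95295701. The gene identifiers were 396552, 301595, 154516, 113992, 574523, 396551, 396527 and 24861 in the same order. Combined exon lengths were 2228 to 2266 bases for 7 members and 2435 bases for Ugt1a6.

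Promoters of 7 members were present in the RefSeq promoter table, which uses the build GRCr8, and Ugt1a5 had no entry. The 150 bases before the start are shown for Ugt1a1, which had the most reads of its own, for Ugt1a2 and Ugt1a3, whose own reads had the highest estimates in RYGB, and for Ugt1a6 and Ugt1a7c, whose own reads had the lowest. Capitals mark GCGTG or its reverse complement CACGC, the core of the response element of the aryl hydrocarbon receptor. The sequences lie on the plus strand at chr9:96248993-96249142 (Ugt1a1), chr9:96238869-96239018 (Ugt1a2), chr9:96227984-96228133 (Ugt1a3), chr9:96194868-96195017 (Ugt1a6) and chr9:96187232-96187381 (Ugt1a7c).
Ugt1a1: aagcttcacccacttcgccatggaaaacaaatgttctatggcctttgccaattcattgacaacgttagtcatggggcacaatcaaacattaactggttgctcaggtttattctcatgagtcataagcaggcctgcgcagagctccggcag
Ugt1a2: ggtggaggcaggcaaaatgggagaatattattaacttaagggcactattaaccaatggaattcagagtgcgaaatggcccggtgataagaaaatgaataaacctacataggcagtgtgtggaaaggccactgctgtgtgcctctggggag
Ugt1a3: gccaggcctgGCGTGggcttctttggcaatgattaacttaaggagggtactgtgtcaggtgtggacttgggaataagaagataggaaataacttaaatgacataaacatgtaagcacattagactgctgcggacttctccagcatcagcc
Ugt1a6: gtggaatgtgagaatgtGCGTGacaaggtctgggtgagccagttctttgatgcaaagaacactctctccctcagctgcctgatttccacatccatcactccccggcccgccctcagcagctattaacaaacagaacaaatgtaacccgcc
Ugt1a7c: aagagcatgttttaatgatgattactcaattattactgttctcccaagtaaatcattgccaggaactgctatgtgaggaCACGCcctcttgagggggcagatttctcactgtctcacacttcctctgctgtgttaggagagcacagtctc

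In the 250 bases before the start, searched on both strands, this core was found in Ugt1a3, Ugt1a6, Ugt1a7c and Ugt1a8, and 25.9% of all 33469 promoters held it. These letters were not found in that window of Ugt1a1, Ugt1a2 or Ugt1a9. The matches describe these letters in this window and were not tested as binding sites.

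The counting method decides what each row of the table can show. A read that overlapped exons of several genes was divided equally among them, so every read in the common exons added the same amount to each of the 8 rows. In all 69 libraries the lowest member was Ugt1a9 or Ugt1a8, and these rows differed by at most 5.26 reads. The lowest row multiplied by 8 was therefore taken as the shared part, and what a member held above the lowest row as its own reads. These were taken to lie in its first exon, and the positions of the reads were not checked. Own reads are approximate. A read that crosses from the first exon into the common exons was divided as well, which lowers them. A read that aligned to several places added a fraction to each place. A member's own reads can therefore hold fractions of reads that also align to another member.

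The summed level of the cluster in RYGB was 431 CPM in the lowest, 705 in the median and 1049.5 in the highest library, and in sham 343, 437 and 650.2. The means were 716 ± 176 CPM (SD, n = 14) and 447 ± 79.2 (SD, n = 12). The sum rose in RYGB by 0.66 on the log2 scale (SE 0.149, adjusted p = 0.00371, edgeR's quasi-likelihood test with batch in the model), where 3.04% of 16669 tested features were called. The adjusted p stayed between 0.00139 and 0.00997 when each of the 26 libraries was left out in turn.

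The labelled batches gave different values for this comparison. In batch A the 11 RYGB libraries ran from 587 to 1049.5 CPM with a median of 756, and the 7 sham libraries from 362 to 495 with a median of 427. The lowest of the 11 RYGB libraries exceeded the highest of the 7 sham libraries. Of all features, 0.42% did not overlap between these 2 sets in either direction. In batch B the RYGB libraries held 431, 584 and 472 CPM and the sham libraries 343, 460, 419, 496 and 650.2 CPM, and the groups overlapped, where 4.93% of all features did not. Fitted on its own, batch A gave a log2 fold change of 0.85 (adjusted p = 5.64e-05), where 5.48% of features were called, and batch B one of 0.07 (adjusted p = 0.989), where 0.15% were. Without sham replicate 12 and the other 5 libraries highest on the first component, batch B gave 0.23 (SE 0.217, adjusted p = 0.75), where 0.222% were called. The difference between the effect in batch A and that in batch B was 0.78 (SE 0.309), with an unadjusted p of 0.0140 and an adjusted p of 0.586 over all features, and 0.64 (adjusted p = 0.25) without those 6 libraries. The 3 RYGB libraries of batch B held 9110860 to 13941960 counts, fewer than each sham library of that batch (14052862 to 22236158), and the part of depth in this difference was not tested.

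**Figure D1:**
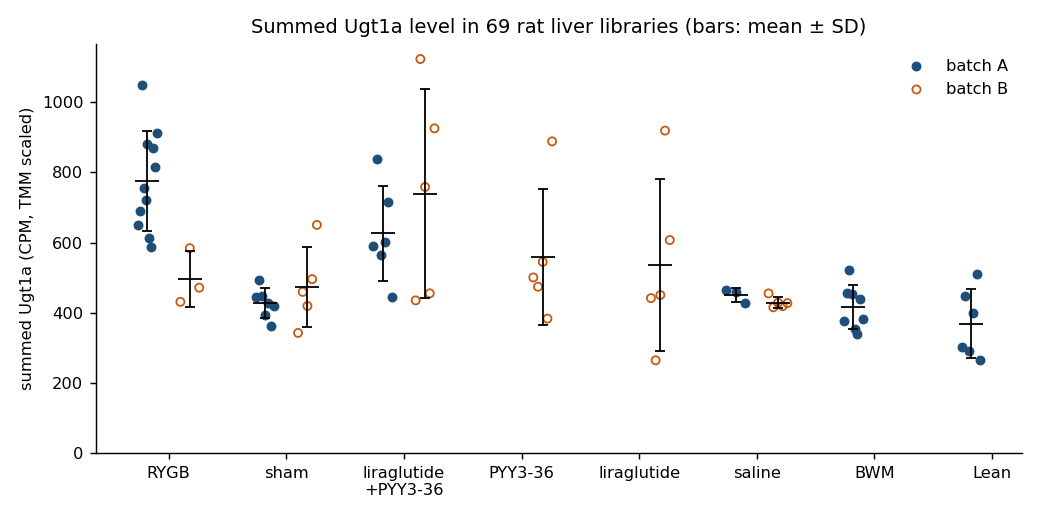
Summed Ugt1a level in CPM (vertical axis) by group (horizontal axis), 1 point per library (batch A filled, batch B open), with bars for the mean and SD of each batch. The 11 RYGB points of batch A lie between 587 and 1049.5, above the 7 sham points of that batch, and the 3 open RYGB points lie among the sham points.

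The sums of BWM and Lean, present in batch A alone, were not called against sham. BWM ran from 339 to 523 CPM with a median of 412, and Lean from 265 to 509 with a median of 352. Both ranges overlap that of sham. The log2 fold change against sham was -0.12 (SE 0.175, adjusted p = 1) for BWM, where 0.042% of features were called, and -0.30 (SE 0.192, adjusted p = 0.996) for Lean, where 0.606% were called. RYGB exceeded BWM by 0.78 on the log2 scale (SE 0.168, adjusted p = 0.00421), where 1.16% of features were called, and Lean by 0.96 (SE 0.188, adjusted p = 0.000473), where 3.67% were called. In batch A the 11 RYGB libraries lay above all BWM and all Lean libraries, while 0.234% and 1.05% of all features did not overlap in these comparisons. The comparisons with RYGB share the RYGB libraries and those with sham the sham libraries.

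Among the drug groups, liraglutide+PYY3-36 had the highest sums, with 435 CPM in the lowest, 602 in the median and 1122 in the highest of 11 libraries. Saline held 465.9, 458 and 428 CPM in batch A and 455, 416, 429, 419 and 428 in batch B, the narrowest spread of all groups at 437 ± 19.4 (SD, n = 8). The combination lay above the highest saline library of the same batch in 5 of 6 libraries of batch A and 4 of 5 of batch B. The log2 fold change against saline was 0.62 (SE 0.173), with an unadjusted p of 0.000644 and an adjusted p of 0.463, so the sum was not called, where 0.006% of features were. It was 0.46 in batch A alone, 0.81 in batch B alone and 0.29 (adjusted p = 0.966) without the 6 libraries highest on the first component, 3 of which belong to this group. Batch B alone without them gave 0.05 (SE 0.238, adjusted p = 0.987), with 2 combination libraries left, at 435 and 456 CPM.

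The libraries of PYY3-36 and of liraglutide belonged to batch B alone. The PYY3-36 libraries held 501, 474, 545, 384 and 888 CPM, and 4 of 5 lay above the highest saline library of that batch. The liraglutide libraries held 442, 265, 451, 919 and 607 CPM, and 2 of 5 lay above it. The log2 fold change was 0.36 (SE 0.211, adjusted p = 0.954) for PYY3-36 and 0.31 (SE 0.212, adjusted p = 0.919) for liraglutide. In these comparisons edgeR called 0 features (0%; 821 at an unadjusted p under 0.05) and 1 feature (0.006%), and DESeq2 called 0 and 2. Without PYY3-36 replicate 5 the estimate was 0.11 (adjusted p = 0.905), and without liraglutide replicate 4 it was 0.01 (adjusted p = 1), so in both groups the value rested on 1 library with a high first component.

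The effect of RYGB against sham and that of liraglutide+PYY3-36 against saline differed by 0.04 on the log2 scale (SE 0.223, adjusted p = 0.94). In batch A alone the difference was 0.39 and in batch B alone -0.73, neither past the threshold (adjusted p = 1 and 0.42). Without the 6 libraries highest on the first component it was 0.38 over both batches (adjusted p = 0.745) and 0.18 in batch B alone (adjusted p = 0.874). The order of mean levels differed between the batches. In batch A it ran from RYGB (776 CPM) through liraglutide+PYY3-36 (626), saline (451), sham (427) and BWM (416) to Lean (369). In batch B it ran from liraglutide+PYY3-36 (739) through PYY3-36 (558), liraglutide (537), RYGB (496) and sham (474) to saline (429). The ranges of each pair of neighbours in either order overlap.

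Row by row, all 8 members rose in RYGB, with log2 fold changes from 0.63 for Ugt1a6 (SE 0.148, adjusted p = 0.00513) to 0.72 for Ugt1a5 (SE 0.151, adjusted p = 0.00148), where 3.12% of 16676 genes were called. The rows are not 8 measurements. The shared part made up most of every row other than that of Ugt1a1, of which it was under 50% in 9 libraries, and Ugt1a2, Ugt1a7c, Ugt1a8 and Ugt1a9 had near-equal levels. Ugt1a9 ran from 53.5 to 118 CPM in RYGB with a median of 77.9 and Ugt1a8 from 53.5 to 118 with a median of 77.9, and in sham their medians were 49.1 and 49.1. Ugt1a1 alone among the rows reached 212 CPM in RYGB, with a median of 136 against 75.0 in sham, and Ugt1a5 followed with medians of 106.2 and 60.9. In batch B alone the estimates of the 8 rows ran from 0.06 to 0.09, with 0 rows called by edgeR and 0 at an unadjusted p under 0.05, where 0.15% of genes were called, and without the 6 libraries from 0.20 to 0.26, again with 0 called and 0 at an unadjusted p under 0.05. DESeq2 was not run on batch B alone.

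Taken apart, the shared part and the own reads had unequal estimates, and no test compared the shared part with the own reads. The shared part had a log2 fold change of 0.65 (SE 0.1496, adjusted p = 0.00468), where 3.05% of 16675 features were called. Of the 6 own parts that passed the filter on low counts, 1 rose, that of Ugt1a3, by 1.40 (SE 0.279, adjusted p = 0.000819). Those of Ugt1a8 and Ugt1a9 were too low to be tested.

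The own reads of Ugt1a3, an enzyme of the bilirubin-like first exon group, were few. In batch A the RYGB libraries held 0.893 CPM in the lowest, 2.29 in the median and 3.26 in the highest, and the sham libraries 0.408, 0.802 and 0.987. In batch B the RYGB libraries held 1.26, 1.99 and 1.599 CPM, from 13.5, 24 and 21.33 reads, and the sham libraries 0.830, 0.128, 0.766, 0.412 and 1.68 CPM. In batch A 1 RYGB library lay within the sham range, and in batch B 1 sham library, replicate 12, lay within the RYGB range. The log2 fold change was 1.61 in batch A alone (adjusted p = 0.000175) and 1.11 in batch B alone (adjusted p = 0.877), or 1.65 there without sham replicate 12 and the other 5 libraries (adjusted p = 0.307). Against BWM it was 1.59 (SE 0.313, adjusted p = 0.00144) and against Lean 1.56 (SE 0.352, adjusted p = 0.00326). Between batch B and batch A the own reads of Ugt1a3 differed by -0.51, and those of the other members tested by -2.40 to -4.35. Whether the own reads of Ugt1a3 lie in its first exon was not tested.

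Ugt1a5 and Ugt1a2 had positive estimates for their own reads that passed the test in batch A alone, where 5.54% of features were called. For Ugt1a5 the RYGB libraries of batch A held 13.2, 30.4 and 48.3 CPM (lowest, median, highest) and the sham libraries 8.06, 12.6 and 19.7. Its log2 fold change was 0.93 over all libraries (SE 0.325, adjusted p = 0.127), 1.20 in batch A alone (adjusted p = 0.00793) and -0.32 in batch B alone (adjusted p = 0.98), or -0.57 without the 6 libraries (adjusted p = 0.819). For Ugt1a2 the values were 0.399, 0.659 and 1.46 CPM in RYGB and 0.114, 0.293 and 0.524 in sham, with log2 fold changes of 1.07 (SE 0.371, adjusted p = 0.117) and 1.21 in batch A alone (adjusted p = 0.0298). In both genes the 2 groups overlap.

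Ugt1a1, the bilirubin enzyme, held the most own reads. They ran from 30.1 to 120 CPM with a median of 65.5 in RYGB and from 16.3 to 52.5 with a median of 38.1 in sham, both of batch A. The log2 fold change was 0.62 (SE 0.332, adjusted p = 0.443), 0.94 in batch A alone (adjusted p = 0.0769) and -0.55 in batch B alone (adjusted p = 0.978), or -0.76 without the 6 libraries (adjusted p = 0.715). Against Lean it rose by 1.39 (SE 0.412, adjusted p = 0.0380), as did the own reads of Ugt1a2 by 1.38 (SE 0.424, adjusted p = 0.0486) and those of Ugt1a5 by 1.33 (SE 0.395, adjusted p = 0.0385), where 3.76% of features were called. These 3 calls were lost without Lean replicate 1, an alternative chosen after seeing the data. There the log2 fold changes were 1.16 (adjusted p = 0.144), 1.14 (adjusted p = 0.176) and 1.12 (adjusted p = 0.155), where 2.44% of features were called, while Ugt1a3 stayed called at 1.63 (adjusted p = 0.00700). Against BWM only the shared part, at 0.76 (SE 0.168, adjusted p = 0.00595), and Ugt1a3 passed among the 7 parts tested, where 1.16% of features were called.

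Ugt1a6 and Ugt1a7c, of the phenol-like first exon group, did not pass the test in any of these comparisons. The own reads of Ugt1a6 ran from 1.13 to 10.6 CPM in RYGB with a median of 2.79 and from 1.57 to 4.35 in sham with a median of 3.69, both of batch A. Those of Ugt1a7c ran from 0.185 to 1.03 in RYGB with a median of 0.437 and from 0.324 to 0.892 in sham with a median of 0.424. The log2 fold changes against sham were 0.10 (SE 0.361, adjusted p = 0.956) and -0.15 (SE 0.357, adjusted p = 0.928). Both estimates lie below those of the other 4 members tested, with errors that leave a change of the size of the sum possible for Ugt1a6.

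**Figure D2:**
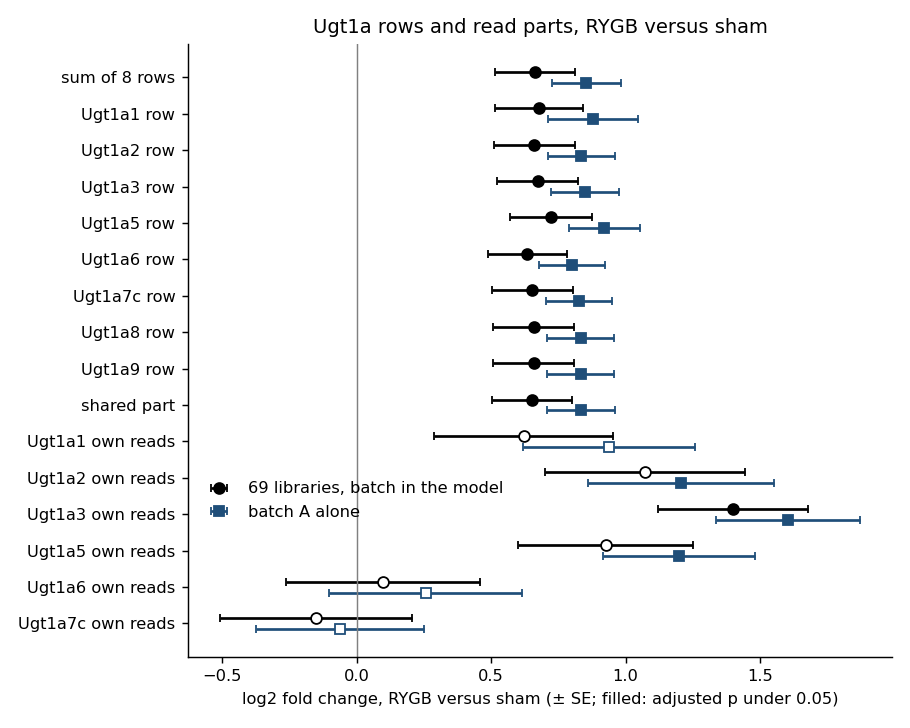
Log2 fold change of RYGB against sham with its SE (horizontal axis) for the sum, the 8 member rows, the shared part and the own reads of 6 members (vertical axis), for all 69 libraries (circles) and for batch A alone (squares), filled where the adjusted p was under 0.05. The rows and the shared part lie together at 0.63 to 0.72 over all libraries, and the own reads spread from -0.15 for Ugt1a7c to 1.40 for Ugt1a3.

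**Figure D3:**
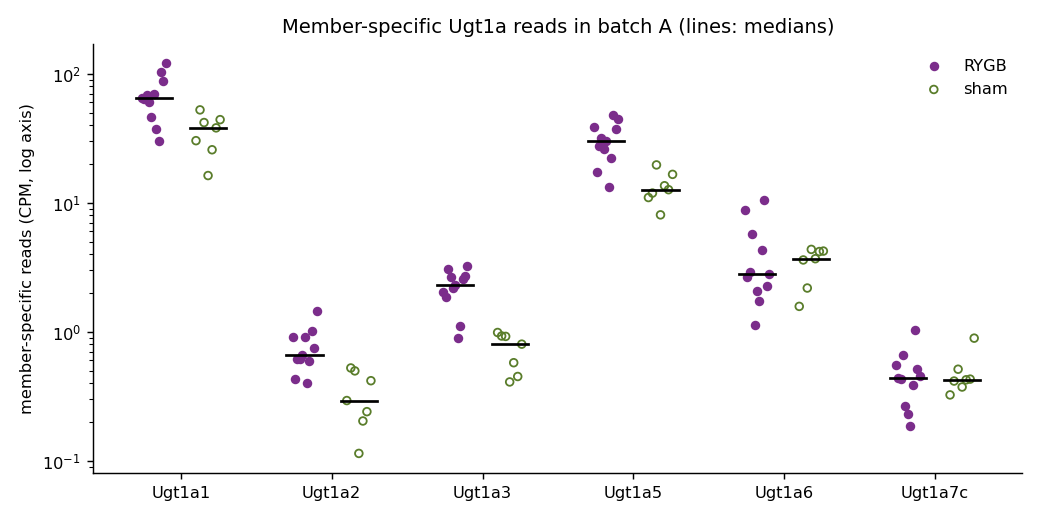
Own reads of 6 members in CPM on a log axis in the RYGB (filled, n = 11) and sham (open, n = 7) libraries of batch A, with lines at the medians. The medians of Ugt1a3 are 2.29 and 0.802, and those of Ugt1a7c 0.437 and 0.424.

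The makeup of the own reads was compared through the share of each member in them. Over both batches no member's share differed at an adjusted p under 0.05 (permutation test within batch, 100000 permutations, two-sided, adjusted over 8 members). The difference of RYGB minus sham was -0.63 percentage points for Ugt1a7c (p = 0.0116, adjusted p = 0.0929), and the difference was -2.58 for Ugt1a6 (p = 0.0453, adjusted p = 0.181). In batch A alone, an alternative chosen after seeing the data, the share of Ugt1a7c was 0.444% ± 0.151 (SD, n = 11) in RYGB and 0.917% ± 0.281 (SD, n = 7) in sham (permutation test, adjusted p = 0.0012). The share of Ugt1a3 was 2.14% ± 0.482 in RYGB and 1.37% ± 0.423 in sham (permutation test, adjusted p = 0.0158). Ugt1a1 made up 63.7% ± 6.63 of the own reads in RYGB and 64.8% ± 6.70 in sham, and this difference was within the spread (permutation test, adjusted p = 0.825).

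Across the 41 libraries of batch A, own reads per kilobase of combined exon length placed Ugt1a1 first, at a median of 16.9 CPM per kilobase (1.28 to 53.2), followed by Ugt1a5 at 7.21 (0.963 to 21.3) and Ugt1a6 at 1.25 (0.296 to 4.33). Ugt1a3 followed at 0.442 (0.176 to 1.46), Ugt1a7c at 0.192 (0.0486 to 0.456) and Ugt1a2 at 0.178 (0.00760 to 0.654). Ugt1a8 had own reads in 36 of these libraries and Ugt1a9 in 4. The ranges of neighbours overlap, and the length of the first exon itself was not used.

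The share of own reads in the locus differed between the labelled batches. In batch A own reads made up 2.31% to 19.2% of all Ugt1a reads with a median of 11.97%, and in batch B 0.242% to 2.94% with a median of 0.978%. All 28 libraries of batch B lay below every library of batch A other than Lean replicate 1, which held 2.31% where the next lowest Lean library held 9.37%. Lean replicate 1 also had the highest first component score of batch A. Between RYGB and sham the share was 13.6% ± 3.84 (SD, n = 11) and 12.6% ± 3.27 (SD, n = 7) in batch A, and 0.897% ± 0.0894 (SD, n = 3) and 1.02% ± 0.748 (SD, n = 5) in batch B.

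The sum and the shared part were not called between the batches over all libraries, where 60.5% of all features were. Between batch B and batch A the log2 fold change was -0.05 (SE 0.119, adjusted p = 0.74) for the sum and 0.14 (SE 0.119, adjusted p = 0.295) for the shared part. Without the 6 libraries and Lean replicate 1 the sum was called lower in batch B, at -0.29 (SE 0.0997, adjusted p = 0.0105), where 63.2% of features were called, and the shared part stood at -0.10 (adjusted p = 0.388). The own reads were lower in batch B by the fitted model, with a log2 fold change of -4.35 (SE 0.308, adjusted p = 4.36e-19) for Ugt1a1, -3.85 for Ugt1a5, -3.09 for Ugt1a6, -2.91 for Ugt1a2 and -2.40 for Ugt1a7c, beside the 60.5% of features called in this comparison. The estimate for Ugt1a3 was -0.51 (SE 0.222, adjusted p = 0.0437), and its mean share of the own reads was 1.37% in batch A and 23.6% in batch B among sham libraries.

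The split also ran within batch B. Over its 28 libraries, Spearman's rho between the first component and the share of own reads was -0.86, and between the first component and the summed level 0.57. Over the 41 libraries of batch A the values were -0.52 and -0.39. These are descriptions over libraries that share treatments and depth. The 6 libraries with the highest first component held own shares of 0.242% to 0.534% and sums of 650.2 to 1122 CPM. The part of RNA quality in these values was not tested.

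**Figure D4:**
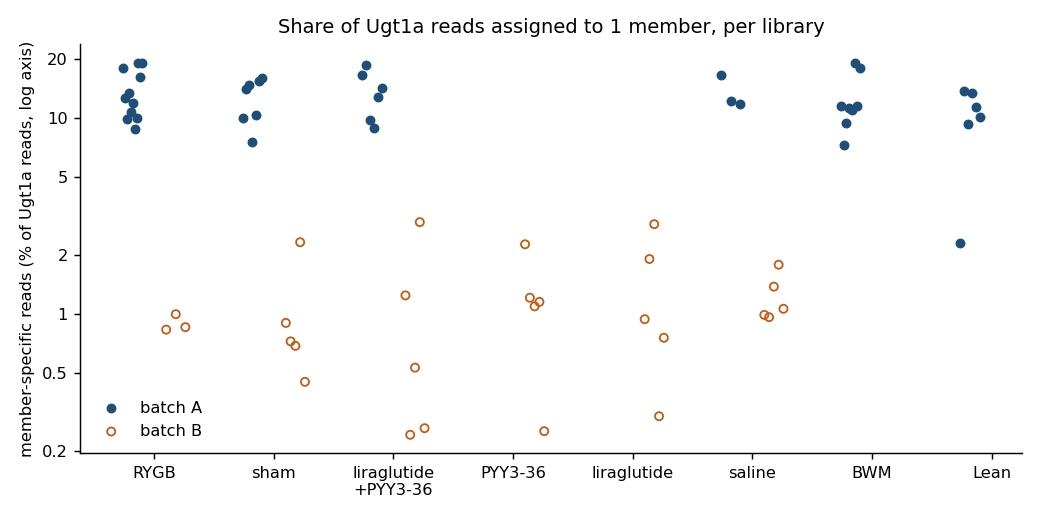
Own reads as a percentage of all Ugt1a reads (vertical log axis) by group (horizontal axis), 1 point per library (batch A filled, batch B open). Batch A lies between 7.32% and 19.2% apart from Lean replicate 1 at 2.31%, and batch B between 0.242% and 2.94%.

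Genes that act before and after glucuronidation were followed through lists chosen with earlier results of these data known, and 3.12% of all genes were called between RYGB and sham by edgeR and 3.82% by DESeq2. Of 7 other UDP-glucuronosyltransferases tested, 1 rose in RYGB, Ugt2b1, from 50.6 ± 42.0 to 155 ± 69.9 CPM (SD), by 1.57 on the log2 scale (SE 0.341, adjusted p = 0.00238). The median log2 fold change of these 7 was -0.13, beside 0.00 over all genes tested. Of 8 transporters, 1 rose, Abcc3, which exports glucuronides from the hepatocyte to the blood, from 2.62 ± 1.01 to 4.72 ± 1.59 CPM, by 0.86 (SE 0.217, adjusted p = 0.0111). Abcc2, which exports them to bile, had a log2 fold change of -0.56 (SE 0.223, adjusted p = 0.203). Of 7 genes for the supply of UDP-glucuronic acid and the removal of glucuronic acid, edgeR and DESeq2 called 0, with 0 at an unadjusted p under 0.05 in edgeR. The lowest p-values in that list were those of the nucleotide sugar transporters Slc35d2 (log2 fold change 0.33, SE 0.169, adjusted p = 0.406) and Slc35d1 (0.31, SE 0.184, adjusted p = 0.533). Of 4 genes of haem breakdown edgeR called 0, with 1 at an unadjusted p under 0.05, and DESeq2 called 1. Blvrb, a biliverdin reductase, had a log2 fold change of 0.28 (SE 0.0841, adjusted p = 0.0502 in edgeR), and Hmox2, a haem oxygenase, one of -0.08 (adjusted p = 0.907).

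Of 14 listed regulators of Ugt1a promoters, which are transcription factors and Keap1, 1 rose, where 3.12% of all genes were called. It was Nr1i3, the constitutive androstane receptor (CAR), with 84.4 ± 50.4 CPM in sham and 190 ± 73.3 in RYGB, a log2 fold change of 1.07 (SE 0.292, adjusted p = 0.0231) and of 1.15 in batch A alone (adjusted p = 0.0166). The estimates of the other named factors were 0.59 for Ahr, the aryl hydrocarbon receptor (adjusted p = 0.245), 0.40 for Ppara (0.317), 0.30 for Nr1i2, the pregnane X receptor (0.533), -0.13 for Hnf4a (0.809) and -0.56 for Nfe2l2 (0.334), none of them called.

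Among genes these factors are known to control, 2 of 12 CAR and pregnane X receptor targets rose and 0 fell, beside the 3.12% of all genes called. Cyp2b1 rose by 2.17 (SE 0.369, adjusted p = 7.7e-05) and Cyp2b2 by 1.21 (SE 0.273, adjusted p = 0.00381), both cytochromes P450. Of 4 aryl hydrocarbon receptor targets tested, 2 rose, Cyp1a1 by 3.31 (SE 0.586, adjusted p = 0.000143), from 0.592 ± 0.450 CPM in sham to 6.76 ± 12.2 in RYGB, and Cyp1a2 by 1.14 (SE 0.272, adjusted p = 0.00665). Of 9 PPARalpha targets, 3 rose, the fatty acid hydroxylases Cyp4a1 (1.21, adjusted p = 0.00954), Cyp4a2 (1.64, adjusted p = 0.0112) and Cyp4a3 (0.74, adjusted p = 0.00383), and 6 were not called. Of 11 NRF2 targets edgeR and DESeq2 called 0, with 2 at an unadjusted p under 0.05 in edgeR. These were Gsta3, a glutathione transferase (0.76, SE 0.246, adjusted p = 0.0812), and Me1, malic enzyme (0.73, SE 0.264, adjusted p = 0.145). Each of the 10 genes called in these lists, Ugt2b1 and Abcc3 included, passed in batch A alone (5.62% of genes called), and in batch B alone, an alternative chosen after seeing the data, edgeR called 0 of these 10, with 4 at an unadjusted p under 0.05. There the estimates were 1.15 for Nr1i3, 2.32 for Cyp1a1, 1.35 for Cyp1a2 and 1.18, 1.25 and 0.56 for Cyp4a1, Cyp4a2 and Cyp4a3, while those of Cyp2b1 and Cyp2b2 were -0.16 and -0.35, beside 0.07 for the summed cluster. Without the 6 libraries highest on the first component all 10 were still called over both batches, where 5.51% of genes were called. Without them batch B again held 0 calls among the 10, with 5 at an unadjusted p under 0.05, and estimates of -0.31 for Cyp2b1 and -0.52 for Cyp2b2.

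Against BWM, 4 of 12 CAR and pregnane X receptor targets, 2 of 4 aryl hydrocarbon receptor targets and 3 of 9 PPARalpha targets rose in RYGB, where 1.27% of genes were called, and against Lean 3, 2 and 1 of them did, where 3.88% were. Of the other 6 lists, 1 of 11 NRF2 targets rose against BWM and no other member was called. Against Lean 1 NRF2 target rose and 2 fell, and 1 of 7 genes of the supply and removal of glucuronic acid fell. In the same comparison 1 other UDP-glucuronosyltransferase, 1 transporter and 1 of the 14 listed regulators of Ugt1a promoters rose. Between RYGB and sham, where edgeR called 3.12% and DESeq2 3.82% of all features, edgeR called 1 of 8 Kupffer cell markers and DESeq2 2, and the 1 that rose in edgeR was Vsig4, by 0.61 (SE 0.183, adjusted p = 0.0486), and all 8 Kupffer estimates were positive. Their summed level ran from 193 to 664 CPM in RYGB and from 168 to 461 in sham, and its part in the Ugt1a values was not tested. The tested markers of endothelial cells (6), stellate cells (7), cholangiocytes (6), T and NK cells (5), blood (4) and intestine (1) held 0 calls by edgeR or DESeq2, with 3 at an unadjusted p under 0.05 in edgeR. The summed level of 6 cholangiocyte markers was 11.7 to 26.9 CPM in RYGB and 10.9 to 28.2 in sham, and that of 5 intestinal markers 0.800 to 4.56 and 2.37 to 8.68.

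The genes whose level across the 69 libraries was most like that of the summed cluster, by Spearman's rho among genes whose log2 CPM averaged 1 or more, were Hsd3b7 (0.79), a steroid dehydrogenase of bile acid synthesis, Vnn1 (0.77), a pantetheinase, Pold4 (0.76), Dnajc12 (0.75), Igfbp2 (0.74), which binds insulin-like growth factors, and Ctsl (0.74), cathepsin L. Within batch A the 6 values ran from 0.71 to 0.82 and within batch B from 0.67 to 0.85. Of these genes, Vnn1 and Igfbp2 were called in RYGB against sham, with log2 fold changes of 2.12 (adjusted p = 8.76e-06) and 5.54 (adjusted p = 3.69e-08), and the other 4 were not. The lowest values were those of Fer1l5 (-0.71), Nfil3 (-0.65), a transcriptional repressor, and LOC103689941 (-0.65). The libraries share treatments, batches and scaling, and the values are descriptions.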

How the data were processed

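The authors sequenced liver poly(A) RNA, aligned the reads with STAR 2.7.2b to Rnor_6.0 and counted them per gene, by strand, with featureCounts 1.6.4, with reads of several places or genes divided among them. The deposited values are estimated counts, not normalized, and 15.9% are not whole. After rounding, edgeR 4.0.16 was used in R 4.3.3 (filterByExpr, TMM, robust quasi-likelihood test with group and batch, 69 libraries, Benjamini-Hochberg adjustment over all features, threshold 0.05). In 1 table the 8 Ugt1a rows were replaced by their sum, and in another by the shared part and the own reads of each member. Shares were compared by permutation within batch. The edgeR fit and the permutation of shares were tested on simulated data, which for the fit held no batch effect. The split into a shared part and own reads was not simulated. Alternatives included DESeq2 1.42.0, other scaling, no batch term, each batch alone and leaving out each library. The genes named were all members, 7 transcription factors (1 of them is not reported here), from each list up to 6 called members or, with none called, the 2 with the lowest p, and the 6 highest and 3 lowest correlations with the sum. The members and lists were chosen with earlier results of these data known. The edgeR p-values set a difference against the spread between rats within groups, estimated over all libraries of the fit. Those of the shares come from group labels permuted within batch.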

Additional observations from a re-analysis of the deposited data

Results flagged for a closer look

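In the group and batch sets of 4 to 10 libraries, the sum, the share of own reads and the own CPM of 6 members were examined, 72 sets in all, and 9 held 1 library with a gap to the others above Dixon's 95% critical value, a gap that chance gives in about 1 of 20 sets. Sham replicate 11 stood above the other sham libraries of batch B in the share of own reads (2.33%, next 0.902%), and in own CPM of Ugt1a1 (6.23, next 1.73), Ugt1a5 (3.24, next 1.03) and Ugt1a6 (1.33, next 0.321). Liraglutide replicate 3 and liraglutide+PYY3-36 replicate 10 stood above their batch B groups in own CPM of Ugt1a1, at 7.08 (next 2.07) and 7.19 (next 2.06). Liraglutide replicate 4 held 0.0742 CPM of own Ugt1a2 (next 0.0201), and liraglutide+PYY3-36 replicate 2 held 1.03 in batch A (next 0.554). Sham replicate 7 held 0.892 CPM of own Ugt1a7c in batch A (next 0.513). The share of sham replicate 11 sums the own reads of these 3 genes and others, so it is not independent of them.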

How the results depend on the processing

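The rise of the summed cluster in RYGB against sham, BWM and Lean kept its direction and call under other scaling, DESeq2, no filter, no batch term, batch A alone, the replicate block, and leaving out any 1 library or the 6 libraries highest on the first component (an alternative chosen after seeing the data). It was lost in batch B alone, where the estimate was 0.073. There 0 of 8 member rows and 0.15% of genes were called, in place of 8 and 3.12%. It was also lost in batch B alone without those 6 libraries (0.23, 0 rows, 0 own parts, 0.222% of features called). The own parts called numbered 1 over all libraries (3.05% of features called), 3 in batch A alone (5.54%), 0 in batch B alone (0.15%) and 2 without those 6 libraries (5.51% of genes in the fit by rows). Of the listed genes 10 were called (3.12% of genes), 16 in batch A alone (5.62%) and 0 in batch B alone (0.15%). Of the shares of members 0 were called, and 2 in batch A alone. The difference between the effects of RYGB and of liraglutide+PYY3-36 turned to -0.73 in batch B alone (0.18 there without those 6) and ran from -0.012 (without liraglutide+PYY3-36 replicate 6) to 0.14 as single libraries were left out, with a negative sign also without RYGB replicate 3 and liraglutide+PYY3-36 replicate 7. In batch B alone the sign also turned for the own reads of Ugt1a1 (-0.55), Ugt1a5 (-0.32) and Ugt1a6 (-0.72), and for Cyp2b1 (-0.16), Cyp2b2 (-0.35), Hmox2 (0.075) and Slc35d1 (-0.28). There, without those 6 libraries, these values were -0.76, -0.57 and -0.97 for the own reads and -0.31 and -0.52 for Cyp2b1 and Cyp2b2. Without them and Lean replicate 1 the shared part between the batches turned to -0.099 and the sum was called, at -0.29. Without a batch term it turned for the own reads of Ugt1a7c (0.21) and for Hnf4a (0.0086), and in batch A alone for the shares of Ugt1a8 (-0.022 percentage points) and Ugt1a9 (0.0028). Without Lean replicate 1, 3 own parts were no longer called in RYGB against Lean, those of Ugt1a1, Ugt1a2 and Ugt1a5. The causes were not tested. Replicate numbers were not used as a pairing in the main test. Of 12 same-numbered RYGB and sham pairs, 4 had a correlation of deviations over 0.1, and 3 RYGB libraries correlated best with their own number. These values cannot exclude a pairing, since some of the pairs join a library of batch A to one of batch B. With the replicate block the sum gave 0.73 (adjusted p = 0.00553) and no call of the sum changed. Own reads limit the member-level values, with 38.58 to 70.33 of them per RYGB library in batch B.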
